A study of Mus musculus domesticus and Mus musculus molossinus with 8 samples.

Results

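Levels of 10 genes that prepare peptides for presentation on major histocompatibility complex (MHC) molecules were followed in mouse liver and thymus, out of 23284 genes in the tables. The genes were taken by name, leaving aside the MHC (H2) genes themselves: B2m, Tap1, Tap2, Tapbp, Psmb8, Psmb9, Psmb10 and Nlrc5 of the class I pathway, and Cd74 and Ciita of the class II pathway. All 10 were found in both tables, and none was listed at 0 in any library. The study sequenced polyadenylated RNA from 4 mice aged 8 weeks, giving 8 libraries: the liver and the thymus of an MSM/Ms (MSM) mouse injected into the peritoneum with 1.5 µg of MegaFasL, of an untreated MSM mouse, of an injected C57BL/6 (B6) mouse and of an untreated B6 mouse. MSM is a wild-derived Japanese inbred strain, B6 a classical laboratory strain, and MegaFasL a Fas ligand in multimeric form, which triggers the Fas death receptor. Every group was 1 mouse and 1 library, so no single group has a replicate check. How long after the injection the tissues were taken is not stated in the labels.

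MHC class I molecules carry peptides from proteins of the cell's own cytosol. The proteasome cuts these proteins, and cells exposed to interferon-gamma exchange its constitutive catalytic subunits (Psmb5, Psmb6 and Psmb7) for inducible ones (Psmb8, Psmb9 and Psmb10), which together form the immunoproteasome. The peptides are pumped into the endoplasmic reticulum by the transporter made of Tap1 and Tap2, loaded with the help of tapasin (Tapbp), and held by a class I heavy chain paired with beta-2-microglobulin (B2m); Nlrc5 is the transactivator of these genes. MHC class II molecules show peptides from engulfed material, are chaperoned by the invariant chain Cd74, and are switched on by the transactivator Ciita, in professional antigen-presenting cells and in thymic epithelium.

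Psmb9, Tap1, Psmb8 and Tap2 lie side by side in the MHC region. In the GENCODE M21 annotation (mm10, counted from 1), Psmb9 (chr17:34181987-34187764, minus strand), Tap1 (chr17:34187553-34197225), Psmb8 (chr17:34197721-34201454) and Tap2 (chr17:34203527-34216321), the last 3 on the plus strand, fit into 34.3 kb, and Tapbp (chr17:33915899-33929292, plus strand) ends 253 kb before Psmb9. Psmb9 and Tap1 are annotated head to head with an overlap of 212 bp, Tap1 ends 495 bp before Psmb8, and Psmb8 ends 2072 bp before Tap2. The other genes are spread out: Psmb10 (chr8:105935735-105938444, minus strand), Nlrc5 (chr8:94434356-94527272, plus strand), B2m (chr2:122147686-122153083, plus strand) and Ciita (chr16:10480059-10528418, plus strand), with Cd74 on a further chromosome. B2m shares its locus in the tables with Patl2 and Trim69, whose highest values in any library were 0.260 and 1.23 FPKM. FPKM are fragments scaled by transcript length and by a factor per library, a level per length that can be compared between genes. How that factor was set is not given in the sources used here.

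Tap1 and Tap2 are paralogs, and so is each inducible subunit with its constitutive partner, which matters for how reads are divided between them. The longest runs of identical sequence between their longest coding transcripts are shown from the GENCODE M21 transcripts, 5′ to 3′; capitals mark the codons of the ATP-binding Walker A motif. The Tap1 and Tap2 run is 74 nucleotides long, so a read that falls wholly inside it cannot be told apart between them. The runs of Psmb8 with Psmb5 (18 nucleotides) and of Psmb10 with Psmb7 (15 nucleotides) are short, and that of Psmb9 with Psmb6 is 11 nucleotides.
Tap1 and Tap2: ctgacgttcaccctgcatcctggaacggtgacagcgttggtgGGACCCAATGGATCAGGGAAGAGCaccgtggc
Psmb8 and Psmb5: catgatctgtggctggga
Psmb10 and Psmb7: actaccatcgcgggg

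By the depth estimated from the tables, 1 FPKM on 1 kb of transcript stood for about 1.59 to 1.81 fragments in livers and 2.82 to 3.43 in thymi. Marker genes fitted the tissue labels, with 10 of 10 hepatocyte markers higher in liver and 10 of 10 T cell markers higher in thymus (limma adjusted p under 0.05). Over all genes, 28.6% were called higher and 32.1% lower in liver. Cd3e, Ptcra and Cd4 reached a mean of 1 FPKM only in thymus, and without them 7 of 7 T cell markers were higher in thymus. The MSM untreated thymus library stood apart, with hepatocyte markers at a summed 2438 FPKM against 33.3 to 183 in the other thymi, and with airway and brown fat markers at 1399 FPKM against 10.3 to 21.2. The B6 untreated liver library held T cell markers at a summed 36.1 FPKM, against 4.62 to 7.60 in the other livers. MSM reads were aligned to mm10, a B6 sequence, so fragments of MSM genes that diverge from it can be lost; the part of this in the strain differences was not tested.

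Which of these genes differ between the tissues was asked first. B2m was higher in liver, while Cd74, Ciita, Tap1, Tap2 and the 3 immunoproteasome subunits were lower in liver than in thymus, each in all 4 mice. The constitutive partners of those subunits were higher in liver, but turned to -0.20, -0.17 and -0.38 (log2) after rescaling every library to a common FPKM sum. Tapbp and Nlrc5 did not pass the test between the tissues.

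B2m, the light chain that every classical class I molecule needs, had 1521 and 1581 FPKM in the livers of the injected and untreated MSM mice and 1536 and 2251 FPKM in those of the injected and untreated B6 mice. Its thymus levels, in the same order of mice, were 371, 484, 392 and 431 FPKM. All livers lay above all thymi, a ratio of means of 4.11, and the difference on the log2(FPKM + 1) scale was 2.02 ± 0.22 (SE, n = 4 mice, limma adjusted p = 0.00057). It ranked above 99.4% of all genes in every library.

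**Figure D1:**
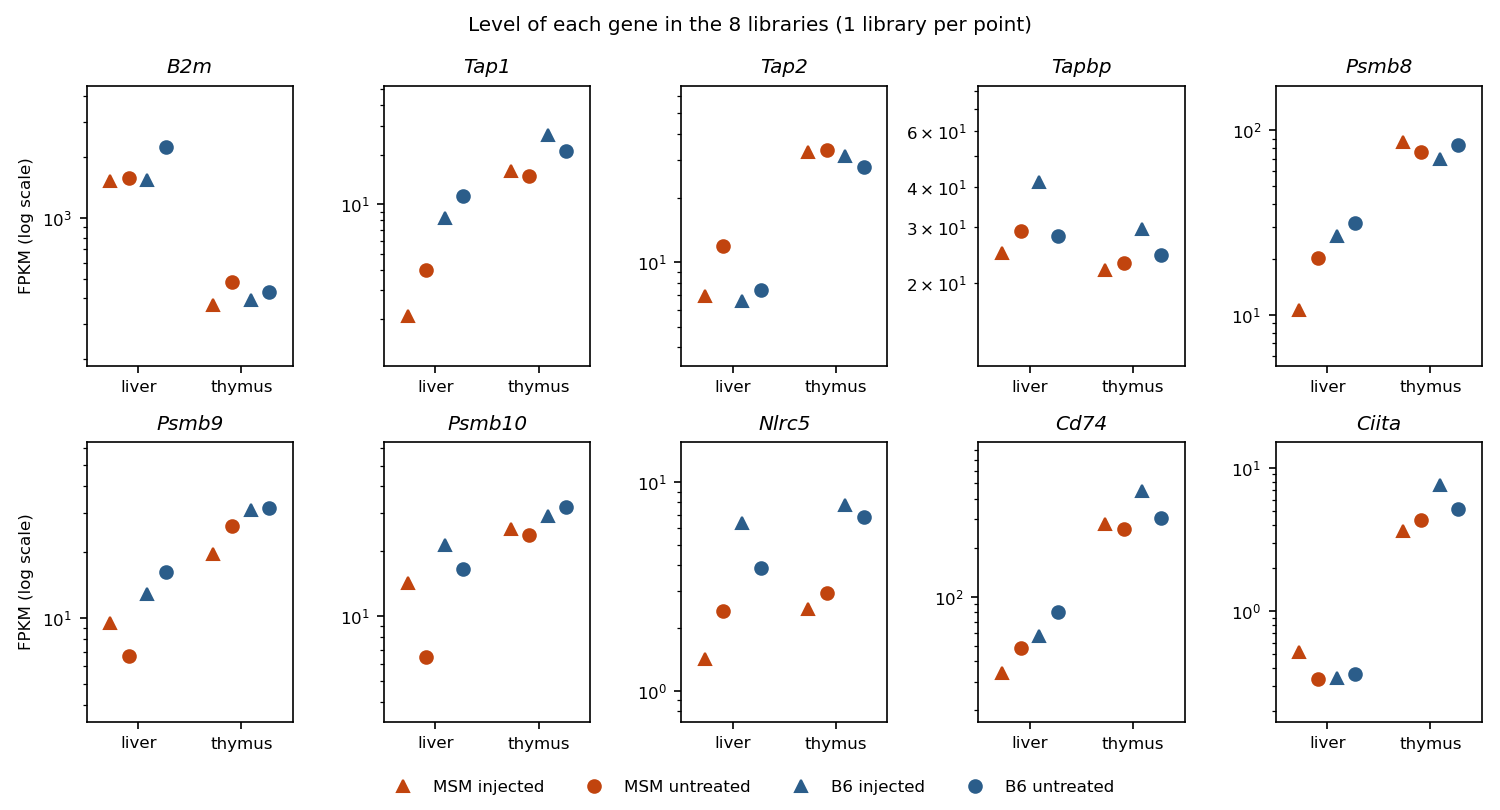
Level of each of the 10 genes in every library (vertical axis, FPKM on a log scale; 1 point per library, liver left of thymus, MSM in orange and B6 in blue, triangles for injected and circles for untreated mice). B2m is higher in liver, Tapbp and Nlrc5 overlap between the tissues, and the other 7 genes lie lower in all 4 livers than in any thymus.

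The immunoproteasome subunits were lower in liver. Psmb8, which replaces Psmb5, had 10.6 and 20.4 FPKM in the livers of the injected and untreated MSM mice, and 26.7 and 31.6 FPKM in those of the B6 mice. Its thymus levels in the same order were 87.1, 76.0, 70.3 and 83.2 FPKM, so the tissues did not overlap, and liver minus thymus was -1.88 ± 0.30 (log2, SE, n = 4 mice, limma adjusted p = 0.0024). Psmb9, which replaces Psmb6, had 9.48 and 6.70 FPKM in MSM livers and 12.9 and 16.1 FPKM in B6 livers (injected, then untreated), against 19.7, 26.4, 30.9 and 31.7 FPKM in the thymi. This difference was -1.24 ± 0.21 (limma adjusted p = 0.0032). Psmb10, which replaces Psmb7, ranged in liver between 6.49 FPKM (untreated MSM) and 21.3 FPKM (injected B6), and in thymus between 23.9 and 32.1 FPKM. It differed by -0.97 ± 0.24 (limma adjusted p = 0.015), the smallest of the 3.

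Psmb5, Psmb6 and Psmb7 supplied the background for these subunits. Psmb5 had 58.0 to 82.8 FPKM in livers against 31.5 to 46.1 in thymi, Psmb6 had 66.4 to 76.7 against 32.7 to 43.1, and Psmb7 had 104 to 141 against 63.4 to 75.3. Liver minus thymus was 0.85, 0.89 and 0.68 on the log2 scale (limma adjusted p = 0.011, 0.0054 and 0.012), and without either library of the injected B6 mouse the calls for Psmb5 and Psmb7 were lost (adjusted p between 0.051 and 0.065). Rescaling to the same sum turned these 3, because livers held a larger FPKM sum (634893 to 768248) than thymi (313981 to 350415), and the direction of a constitutive subunit thus depends on the scaling.

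A ratio of both subunits within a library does not depend on that scaling. Psmb8 over Psmb5 was 0.183 to 0.382 in the 4 livers and 1.89 to 2.23 in the 4 thymi, so the inducible subunit made up 15.4% to 27.6% of the pair in liver and 65.4% to 69.1% in thymus. Psmb9 over Psmb6 was 0.0879 to 0.210 in livers and 0.456 to 0.821 in thymi. Psmb10 over Psmb7 was 0.0461 to 0.199 in livers and 0.317 to 0.460 in thymi. In each pair all livers lay below all thymi, but only Psmb8 exceeded its partner, and only in thymus. The log2 ratio differed between liver and thymus by -2.80 ± 0.45, -2.22 ± 0.67 and -1.72 ± 0.72 (SD, n = 4 mice; exact sign-flip permutation test, two-sided p = 0.125 for each, the smallest that 4 mice allow).

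**Figure D2:**
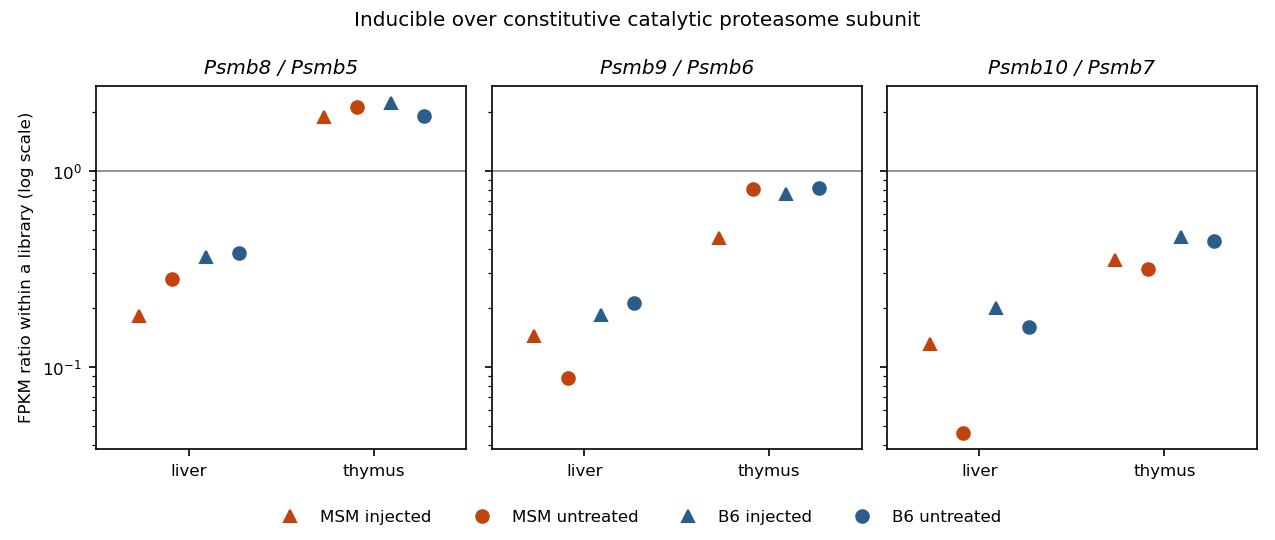
Ratio of each inducible to its constitutive catalytic proteasome subunit within a library (vertical axis, FPKM ratio on a log scale; the grey line marks a ratio of 1; 1 point per library, liver left of thymus). All livers lie below all thymi in each pair, and Psmb8 over Psmb5 in the 4 thymi, at 1.89 to 2.23, lies above 1.

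The peptide transporter was also lower in liver. Tap1 had 2.08 and 3.99 FPKM in the livers of the injected and untreated MSM mice and 8.29 and 11.3 FPKM in those of the B6 mice, and its thymus levels were 16.0, 14.8, 26.2 and 21.1 FPKM in the same order. Its lowest liver value rested on about 8.98 fragments by the estimated depth, a counting error of 33.4%. Tap1 differed between liver and thymus by -1.63 ± 0.28 (log2, SE, n = 4 mice, limma adjusted p = 0.0034). Tap2 had 6.56 to 11.9 FPKM in livers and 28.0 to 33.4 FPKM in thymi, a difference of -1.85 ± 0.19 (limma adjusted p = 0.00043). Both chains of the transporter were lower in liver, although a read within their shared run can be assigned to either.

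Tapasin (Tapbp), which bridges the transporter and the class I heavy chain, had 24.7 to 41.5 FPKM in livers and 21.9 to 29.5 FPKM in thymi. These ranges overlapped, and liver minus thymus was 0.29 ± 0.16 (log2, SE, n = 4 mice, limma adjusted p = 0.15), or -0.76 with adjusted p = 0.0071 after rescaling to a common sum. The class I transactivator gene Nlrc5 had 1.41 to 6.34 FPKM in livers and 2.47 to 7.78 FPKM in thymi, again overlapping. Its difference was -0.42 ± 0.20 (limma adjusted p = 0.11), or -1.40 with adjusted p = 0.0021 after rescaling.

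Both class II genes were lower in liver. The invariant chain gene Cd74 had 33.8 and 48.0 FPKM in the livers of the injected and untreated MSM mice and 56.9 and 80.8 FPKM in those of the B6 mice, against 280, 262, 448 and 307 FPKM in the thymi of the same mice. Its thymus mean was 5.91 times its liver mean, and liver minus thymus was -2.58 ± 0.24 (log2, SE, n = 4 mice, limma adjusted p = 0.0003). Ciita had 0.336 to 0.520 FPKM in livers, about 3.40 to 4.77 fragments each by the estimated depth, and 3.62 to 7.53 FPKM in thymi. It differed by -2.11 ± 0.25 (limma adjusted p = 0.00081), and it passed the filter on low values only through its thymus level. Beside this, B cell markers were summed at 0.639 to 7.22 FPKM in livers and 3.10 to 43.2 FPKM in thymi. Dendritic cell markers stood at 1.60 to 6.99 against 24.1 to 43.0 FPKM. The 10 thymic epithelial markers were summed at 74.2 to 174 FPKM in livers against 380 to 598 FPKM in thymi. Of these, Foxn1 and Aire were listed at 0 in all livers, while Krt8 had 70.0 to 164 FPKM there against 63.4 to 85.3 FPKM. Kupffer cell and macrophage markers were summed at 95.4 to 527 FPKM in livers against 147 to 241 FPKM in thymi. Of these 13, 7 had higher and 6 lower values in liver. The part of these cell types in the levels was not tested, and in a bulk sample fewer cells of a type and less RNA per cell cannot be told apart.

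Counted over the 10 genes, 7 were lower and 1 was higher in liver, where limma called 32.1% of 12880 genes lower and 28.6% higher (60.7% in all). Without Ciita, which entered only through thymus, 6 of 9 were lower and 1 higher, with a median difference of -1.24. In 7 of the 10 all livers lay below all thymi and in 1 above, beside 29.9% and 26.3% of all genes. The median difference of the 10 genes was -1.43, beside -0.13 for all genes tested. After rescaling to a common sum the median of all genes moved to -1.05 and the calls over all genes split into 2084 higher and 7788 lower, in place of 3687 and 4134; Tapbp and Nlrc5 then joined the genes lower in liver, and B2m stayed higher. The 8 calls also held without the MSM untreated thymus library and without the B6 untreated liver library.

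In the livers, 8 of the 9 genes tested were lower in MSM than in B6, the largest differences being those of Tap1, Nlrc5 and Psmb8, but none passed the adjusted test. Ciita was too low in liver to be tested. The median MSM minus B6 difference of the 9 genes was -0.78, beside 0.01 for all genes.

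Tap1 had 2.08 and 3.99 FPKM in the injected and untreated MSM livers against 8.29 and 11.3 FPKM in the B6 livers. Both MSM livers lay below both B6 livers, and the difference was -1.45 ± 0.30 (log2, SE, n = 2 mice per strain, limma adjusted p = 0.13). This SE, as for every strain value here, does not measure the spread among mice of 1 group. It starts from how far the difference varied between injected and untreated mice. With 1 residual degree of freedom, limma draws that variation in large part from other genes of similar level. Tap2 went the other way, with 6.95 and 11.9 FPKM in MSM livers against 6.56 and 7.45 FPKM in B6 livers, overlapping values that differed by 0.34 ± 0.30 (limma adjusted p = 0.63).

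Nlrc5 had 1.41 and 2.40 FPKM in the injected and untreated MSM livers against 6.34 and 3.88 FPKM in the B6 livers, a difference of -1.06 ± 0.42 (limma adjusted p = 0.32). The immunoproteasome genes likewise showed no overlap between the strains. Psmb8 stood at 10.6 and 20.4 FPKM in MSM livers against 26.7 and 31.6 FPKM in B6 livers (-0.93 ± 0.28, limma adjusted p = 0.23). Psmb10 stood at 14.3 and 6.49 FPKM against 21.3 and 16.5 FPKM (-0.89 ± 0.29, limma adjusted p = 0.26). Psmb9 stood at 9.48 and 6.70 FPKM against 12.9 and 16.1 FPKM (-0.78 ± 0.31, limma adjusted p = 0.32).

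The constitutive partners in liver differed by -0.26 (Psmb5), -0.04 (Psmb6) and 0.23 (Psmb7) between MSM and B6, none past the test. Within the pairs, the log2 ratio of inducible to constitutive subunit was lower in MSM than in B6 liver for each pair in both treatments, with differences between -0.37 (Psmb9 over Psmb6, injected) and -1.79 (Psmb10 over Psmb7, untreated). With 2 mice per strain these ratios were not tested.

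Cd74 had 33.8 and 48.0 FPKM in the injected and untreated MSM livers against 56.9 and 80.8 FPKM in the B6 livers. The difference was nearly the same in both treatments, -0.73 in injected and -0.74 in untreated mice, and the fit gave -0.74 ± 0.21 (limma adjusted p = 0.21). B2m, at 1521 and 1581 FPKM in MSM livers and 1536 and 2251 FPKM in B6 livers, differed by -0.26 ± 0.21 (limma adjusted p = 0.59), with -0.01 in injected and -0.51 in untreated mice. Tapbp differed by -0.34 ± 0.28 (limma adjusted p = 0.62), with -0.72 in injected and 0.05 in untreated mice.

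**Figure D3:**
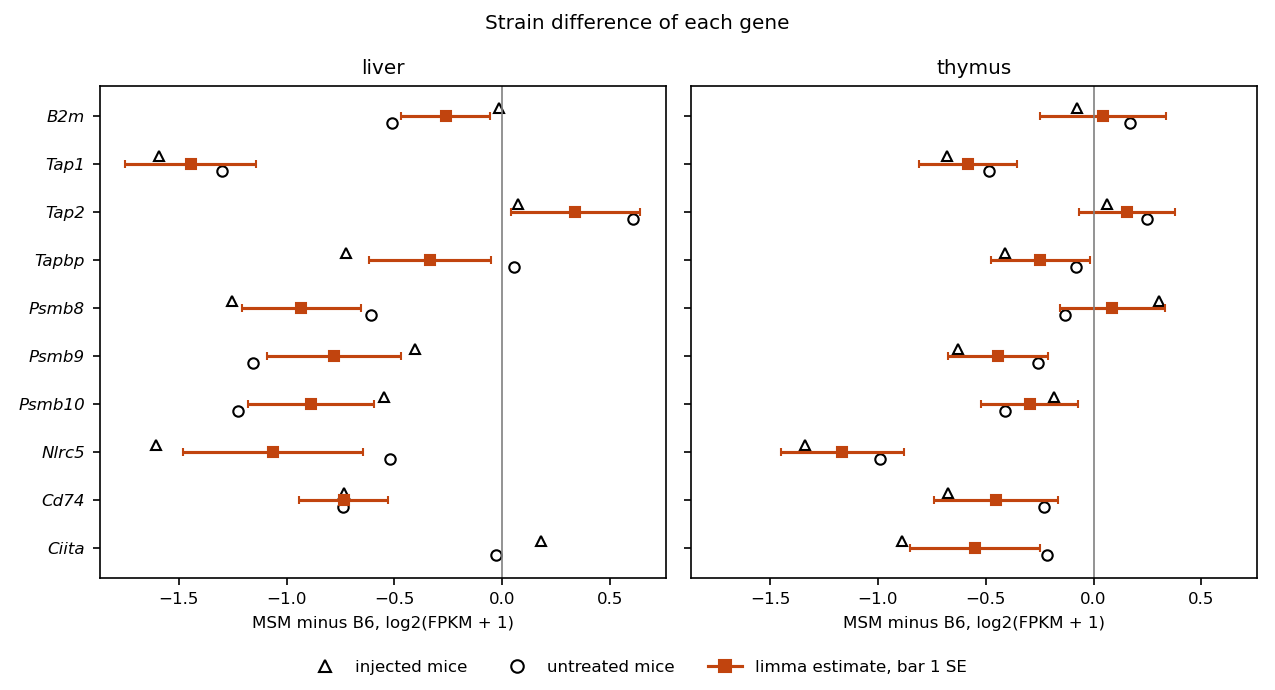
MSM minus B6 difference of each gene in liver (left) and thymus (right), in log2(FPKM + 1); open triangles are the injected and open circles the untreated mice, filled squares the limma estimate with 1 SE (n = 2 mice per strain). Ciita in liver has no estimate because it was below the filter. All points of Tap1, Nlrc5, Psmb9, Psmb10 and Cd74 lie left of 0 in both tissues. Those of Psmb8 lie left of 0 in liver (estimate -0.93) and on both sides of 0 in thymus (0.09).

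None of the 9 genes passed the adjusted test in liver, where limma called 1.47% of 10971 genes; 4 of them (Tap1, Cd74, Psmb8 and Psmb10) were lower at an unadjusted p under 0.05, beside 9.15% of all genes lower at that threshold. In 6 of the 9, both MSM livers lay below both B6 livers, beside 22.8% of all genes. Macrophage markers moved with the same strain contrast. The 13 Kupffer cell and macrophage markers were all lower in MSM liver, 2 of them past the adjusted test (7 after rescaling to a common sum, 3 under median ratio centring, and none without any 1 of the 4 liver libraries), with a summed 96.6 and 95.4 FPKM in the injected and untreated MSM livers against 248 and 527 FPKM in the B6 livers, and none was at 0 in any liver. Sinusoidal endothelial markers were summed at 57.5 and 95.8 FPKM in MSM livers against 128 and 167 FPKM in B6 livers. Among these 7 markers, 6 had lower values in MSM and 1 higher, none past the adjusted test (1 called lower after rescaling). The higher one was Lyve1, at 12.7 and 8.41 FPKM in MSM against 4.85 and 4.56 FPKM in B6. B cell markers were summed at 0.639 and 2.24 against 3.94 and 7.22 FPKM. These sums lie near the floor, with 6 and 4 of the 7 B cell markers listed at 0 in the injected and untreated MSM livers. All 7 T cell markers tested were lower in MSM liver too, none past the test, with a summed 4.62 and 6.05 FPKM in MSM livers against 7.60 and 36.1 FPKM in B6 livers, the highest in the B6 untreated library that stands apart. By contrast, 6 of 10 hepatocyte markers were higher and 4 lower in MSM liver. The 2 dendritic cell markers tested went 1 each way. The part of these cell types in the lower levels of the antigen processing genes was not tested.

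In the thymi, 7 of the 10 genes were lower in MSM, again with Nlrc5 and Tap1 showing the largest differences, and none passed the adjusted test. Nlrc5 had 2.47 and 2.94 FPKM in the injected and untreated MSM thymi against 7.78 and 6.84 FPKM in the B6 thymi. Its difference was -1.17 ± 0.29 (log2, SE, n = 2 mice per strain, limma adjusted p = 0.18). The MSM to B6 ratio of mean FPKM was 0.370 in thymus and 0.373 in liver. Tap1 had 16.0 and 14.8 FPKM in MSM thymi against 26.2 and 21.1 FPKM in B6 thymi, a difference of -0.58 ± 0.23 (limma adjusted p = 0.37).

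The class II genes differed in the same direction in thymus. Cd74 had 280 and 262 FPKM in the injected and untreated MSM thymi against 448 and 307 FPKM in the B6 thymi, a difference of -0.45 ± 0.29 (limma adjusted p = 0.57). Ciita had 3.62 and 4.33 FPKM against 7.53 and 5.18 FPKM, a difference of -0.55 ± 0.30 (limma adjusted p = 0.51). In both genes the gap was wider in the injected mice (-0.68 for Cd74 and -0.89 for Ciita) than in the untreated mice (-0.23 and -0.21), and a difference between treatments was not tested. Dendritic cell markers were summed at 24.1 FPKM in the injected and 30.9 FPKM in the untreated MSM thymus, against 43.0 and 28.4 FPKM in the B6 thymi, B cell markers at 3.10 and 43.2 against 14.4 and 18.8 FPKM, and thymic epithelial markers at 553 and 380 against 598 and 513 FPKM. Of 10 T cell markers, 8 had lower values in MSM thymus. Limma called none, and 3 were lower at an unadjusted p under 0.05, beside 6.6% of all genes. The 10 markers were summed at 2013 and 1299 FPKM in the injected and untreated MSM thymi against 2054 and 1994 FPKM in the B6 thymi. The lowest sum was that of the MSM untreated library that stands apart by its hepatocyte and airway markers. The part of these cell types in the values was not tested.

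Psmb9 (-0.44 ± 0.23), Psmb10 (-0.30 ± 0.23) and Tapbp (-0.25 ± 0.23) had lower values in both MSM thymi than in either B6 thymus, with limma adjusted p between 0.49 and 0.71. Psmb8, at 87.1 and 76.0 FPKM in MSM against 70.3 and 83.2 FPKM in B6 thymi, overlapped and differed by 0.09 ± 0.24 (limma adjusted p = 0.93). B2m differed by 0.05 ± 0.29 (limma adjusted p = 0.97) and turned to -0.02 after rescaling to a common sum. Tap2 lay higher in both MSM thymi, at 32.9 and 33.4 FPKM against 31.5 and 28.0 FPKM, a difference of 0.16 ± 0.22 (limma adjusted p = 0.83).

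None of the 10 genes was called in thymus, where limma called 0.973% of 11610 genes. Nlrc5 and Tap1 were lower at an unadjusted p under 0.05, beside 6.6% of all genes. In 7 of the 10 both MSM thymi lay below both B6 thymi, beside 22.3% of all genes, and in 1 (Tap2) above, beside 23.1%. The values of injected mice alone, which leave out the MSM untreated thymus library with its hepatocyte and airway markers, were -1.34 for Nlrc5, -0.68 for Tap1, -0.63 for Psmb9, -0.41 for Tapbp and -0.18 for Psmb10.

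Whether the strain difference itself changed with the tissue was tested on the liver minus thymus difference of each mouse. No gene of the 10 was called, where limma called 0.365% of 12880 genes, and none had an unadjusted p under 0.05, beside 12.6% of all genes. The largest values were -1.02 ± 0.42 for Psmb8 (limma adjusted p = 0.41), whose MSM minus B6 difference was -0.93 in liver and 0.09 in thymus, and -0.86 ± 0.36 for Tap1 (limma adjusted p = 0.42). Nlrc5 gave 0.10 ± 0.43 (limma adjusted p = 0.95).

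Injected and untreated mice could be compared only as a description, because each treatment is also a separately normalized table and each group 1 library. After centring libraries within a tissue, none of the 9 genes measured in liver and of the 10 in thymus differed by 2-fold in either strain on the log2(FPKM + 1) scale. Psmb10 in MSM liver came closest, at 0.99 log2 units. Over all genes in liver, 6.65% were 2-fold higher and 7.11% 2-fold lower in the injected mouse in MSM, and 6.47% and 6.24% in B6. In thymus these shares were 1.84% and 9.65% in MSM and 2.11% and 1.73% in B6.

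In liver, B2m, Tap1, Tap2, Psmb8 and Cd74 were lower in the injected mice of both strains, 5 of the 9 genes measured, beside 29.2% of all genes. Cd74 was lower by similar amounts, with 33.8 FPKM in the injected against 48.0 FPKM in the untreated MSM liver, and 56.9 against 80.8 FPKM in the B6 livers (-0.53 and -0.56 on the centred log2 scale). Psmb8 gave -0.92 in MSM and -0.30 in B6, Tap1 -0.72 and -0.46, Tap2 -0.73 and -0.22, and B2m -0.10 and -0.62. Psmb10 alone was higher in the injected mice of both strains (1 of 9, beside 27.6% of all genes), with 14.3 against 6.49 FPKM in MSM and 21.3 against 16.5 FPKM in B6 (0.99 and 0.29). The value of 6.49 FPKM rested on about 12.4 fragments by the estimated depth, a counting error of 28.4%. Psmb9, Tapbp and Nlrc5 differed in sign between the strains.

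**Figure D4:**
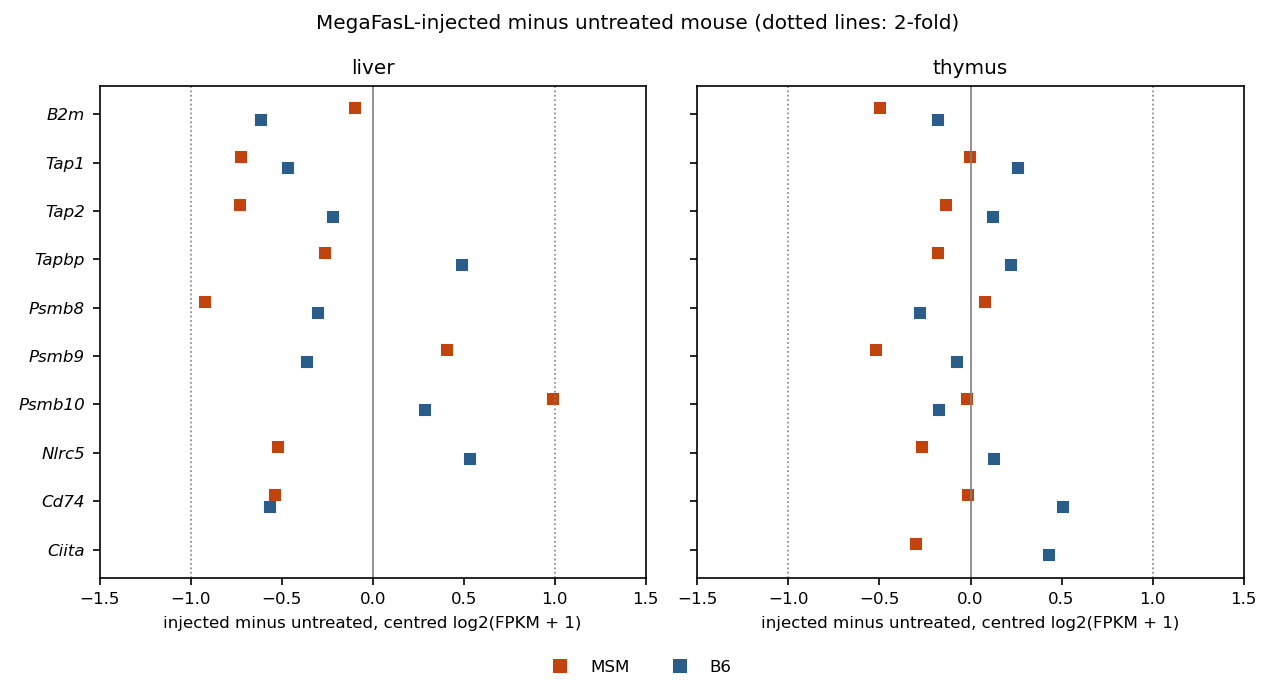
MegaFasL-injected minus untreated difference of each gene in liver (left) and thymus (right), in centred log2(FPKM + 1), with MSM in orange and B6 in blue (1 mouse per treatment and strain; dotted lines mark a 2-fold difference). Ciita was below the filter in liver. No point passes the dotted lines, and Psmb10 in MSM liver, at 0.99, comes closest.

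These liver values depend on the scaling. Most of the 11 structural subunit genes of the proteasome core were themselves lower in the injected liver. In MSM 10 were lower and 1 higher (median -0.32), and in B6 8 were lower and 3 higher (median -0.21). Set against the mean change of these 11 genes, a scaling added after the data were seen, the mean over both strains was -0.07 for B2m, -0.20 for Tap2, -0.27 for Cd74, -0.32 for Tap1, -0.33 for Psmb8 and 0.92 for Psmb10. Under the main scaling these means were -0.36, -0.47, -0.55, -0.59, -0.61 and 0.64 in the same order. Set against the median level of the 11 genes in each library, B2m turned to 0.07, and Psmb10 stood at 1.06.

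Cell type markers moved between the same livers. In B6, 13 of 13 macrophage markers were lower in the injected liver, 11 of them by 2-fold, with a summed 248 against 527 FPKM, and 7 of 7 T cell markers were lower, 5 of them by 2-fold, with a summed 7.60 against 36.1 FPKM. In MSM, 7 of 13 macrophage markers were lower and 6 higher in the injected liver, with a summed 96.6 against 95.4 FPKM. Of the 7 T cell markers in MSM, 4 were higher and 3 lower. Sinusoidal endothelial markers were lower in 6 of 7 in MSM, with a summed 57.5 against 95.8 FPKM. In B6, 5 of the 7 sinusoidal markers were lower, with a summed 128 against 167 FPKM. Their part in the values of the antigen processing genes was not tested.

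In thymus the differences between injected and untreated mice were smaller, at most 0.52 in size. B2m, Psmb9 and Psmb10 were lower in the injected mice of both strains (3 of 10 genes, beside 26% of all genes), with B2m at 371 FPKM in the injected against 484 FPKM in the untreated MSM thymus and 392 against 431 FPKM in the B6 thymi. Set against the mean change of the proteasome core, the mean over both strains was -0.29 for B2m, -0.25 for Psmb9 and -0.05 for Psmb10, and Psmb10 turned to 0.12 against the median level of the core. The other 7 differed in sign between the strains. Cd74 and Ciita, for example, gave -0.02 and -0.30 in MSM but 0.51 and 0.43 in B6. The MSM value was near 0 for Tap1 (-0.0053) and Psmb8 (0.08) as well as for Cd74, so those signs rest on small values. The fit on the liver minus thymus difference of each mouse called none of the 10 genes for an injection difference that changed between tissues. With 4 mice in the fit, such a change could be missed. Limma called 0.0388% of 12880 genes, and none of the 10 had an unadjusted p under 0.05, beside 7.56% of all genes. The largest were -0.82 ± 0.39 for Cd74 and -0.75 ± 0.36 for Tap1 (limma adjusted p = 0.69 for each), and 0.71 ± 0.36 for Psmb10 (limma adjusted p = 0.70).

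Other genes of the pathway, listed with earlier results known, set these 10 in context between the tissues. Their counts stand beside 28.6% higher and 32.1% lower over all genes, or 14.4% and 53.8% after rescaling to a common sum. Of 13 class I loading and trimming genes, 6 were higher and 4 lower in liver (limma adjusted p under 0.05), among them the peptidase gene Lap3 (3.56 ± 0.16), the chaperone gene Calr (1.93 ± 0.20) and the aminopeptidase gene Lnpep (-1.60 ± 0.17); after rescaling to a common sum 2 were higher and 6 lower. Of 9 class II processing genes, 5 were higher and 2 lower, with the cathepsin gene Ctsh at 3.91 ± 0.22 and the lysosomal thiol reductase gene Ifi30 at -1.42 ± 0.23; after rescaling 3 were higher and 4 lower. Of 8 genes for factors that bind class I and II promoters, 4 were lower in liver, with Creb1 at -2.02 ± 0.17, Nfya at -1.80 ± 0.22 and Rfx5 at -0.95 ± 0.27, and after rescaling all 8 were lower. Of 9 interferon-gamma signalling genes tested, 6 were lower, or 8 after rescaling, with the transcription factor gene Irf8 at -2.23 ± 0.19. The inhibitor gene Socs1, 1 of the 6, passed the filter only through thymus, and without it 5 of 8 were lower. Psmb11, the catalytic subunit of the proteasome of cortical thymic epithelium, had 11.4 to 20.9 FPKM in thymi, was listed at 0 in 3 livers and had 0.301 FPKM in the B6 untreated liver, so it too passed the filter only through thymus.

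Between the strains, few of these genes passed the test. Ifngr1, a chain of the interferon-gamma receptor, had 17.9 and 16.99 FPKM in the injected and untreated MSM thymi against 68.1 and 94.9 FPKM in the B6 thymi, without overlap. Its difference of -2.14 ± 0.25 (log2, SE, n = 2 mice per strain, limma adjusted p = 0.02) was the 1 call among the 9 interferon-gamma signalling genes tested in thymus, 7 of which had lower values in MSM. Without any 1 of the 4 thymus libraries, in a fit on both tissues together, that call was lost (difference -1.87 to -2.42, limma adjusted p between 0.43 and 0.60), as it was by limma without trend (adjusted p = 0.10). Ifngr1 in liver gave 6.37 and 6.70 FPKM in MSM against 6.44 and 19.6 FPKM in B6 (-0.72 ± 0.42, limma adjusted p = 0.48). Ifng itself was listed at 0 in 7 libraries.

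Of the 9 class II processing genes in liver, 6 had lower values in MSM and none was called by limma, with 3 at an unadjusted p under 0.05 (2 lower, beside 9.15% of all genes, and 1 higher). After rescaling to a common sum 2 were called lower. Ctss, the protease that trims the invariant chain, had 7.17 and 14.5 FPKM in the injected and untreated MSM livers against 21.7 and 43.8 FPKM in the B6 livers (-1.501 ± 0.24, limma adjusted p = 0.074). Cst3, an inhibitor of such proteases, had 49.5 and 54.6 FPKM in MSM livers against 116 and 151 FPKM in B6 livers (-1.33 ± 0.20, limma adjusted p = 0.068). Limma made no call in either tissue among the 11 structural subunits of the proteasome core (0 at an unadjusted p under 0.05), whose median strain difference was 0.09 in liver and 0.19 in thymus (-0.09 in liver and 0.13 in thymus after rescaling to a common sum).

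The 10 genes were also compared by the shape of their profile, taken as the root mean square difference of log2(FPKM + 1) over the 8 libraries after centring within each tissue. Among themselves, leaving out Ciita, which is nearly flat over the livers at 0.336 to 0.520 FPKM, the closest were Psmb9 and Psmb10 (0.26) and Tap1 and Cd74 (0.27). Among 7465 other genes, those closest to Tap1 were Zbp1 (0.0939), Casp8 (0.117) and Arhgap19 (0.140), where the median gene stood at 0.683. Zbp1 had 1.81 and 3.99 FPKM in the injected and untreated MSM livers against 8.32 and 9.14 FPKM in the B6 livers, and 8.83 and 9.12 FPKM in MSM thymi against 16.7 and 12.8 FPKM in B6 thymi. Closest to Psmb9 were Ifngr2 (0.0783), Alg11 (0.0937) and Zfp317 (0.0974), with the median gene at 0.491, and closest to Cd74 were Adar (0.0819), Stk40 (0.113) and Ino80c (0.114), with the median gene at 0.501. These distances rest on 8 libraries that share their mouse or their table, and they are descriptions only.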

How the data were processed

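Polyadenylated RNA of 8 libraries (TruSeq kit, per the labels' protocols) was aligned to mm10 with TopHat and quantified with Cuffdiff 2.2.1, per the submitters' processing notes. The authors deposited gene FPKM in 2 tables, 1 per treatment, each normalized separately; the annotation and run settings are not given in the sources used here. The authors' interval for each of the 80 values of the 10 genes had a lower bound of 0.

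Levels were compared as log2(FPKM + 1), which understates differences of low genes. Genes averaging 1 FPKM or more were tested with limma 3.58.1 (trend, R 4.3.3, two-sided, Benjamini-Hochberg adjusted p under 0.05 over all genes). Strain was fitted per tissue with treatment as a block (1 residual degree of freedom), and liver minus thymus with mouse as a block, because liver and thymus came from the same mouse, per the series' design text. Strain and injection differences between tissues were fitted on the liver minus thymus difference of each mouse. Injected minus untreated was centred by the median ratio and not tested. The code was tested on simulated data. Groups come from the labels. The limma p-values rest on a spread that pools these few samples of a gene with other genes of similar level.

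Depth was estimated by finding the scale that makes FPKM of single-transcript genes whole fragments within 0.1, as it did for 70.2% to 74.6% of values (20% by chance); it covers counting error only. GENCODE M21 gave positions and transcript sequences.

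The 10 genes and all lists were chosen with earlier results of these data known. Named were these genes, Psmb5, Psmb6 and Psmb7, up to 4 genes per list with a mean of at least 5 FPKM and the largest differences, and the 3 genes most like Tap1, Psmb9 and Cd74. A gene that this rule takes is not reported here. Alternatives were added values of 0.1 and 5, no filter or 5 FPKM, a common sum (TPM), median ratio centring, limma without trend or with robust moderation, no block, scaling on the median level of the proteasome core (or, added later, on its mean change), and leaving out each library or mouse.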

Additional observations from a re-analysis of the deposited data

Results flagged for a closer look

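For some genes the injected minus untreated difference (centred log2 scale) had opposite signs in MSM and B6, each value resting on 1 mouse per treatment and strain; the difference between the strains was not tested. In liver these were Nlrc5 (-0.52 in MSM and 0.54 in B6, a gap of -1.05), Psmb9 (0.41 and -0.36, a gap of 0.77) and Tapbp (-0.26 and 0.49, a gap of -0.75). In thymus the widest gaps were those of Ciita (-0.30 in MSM and 0.43 in B6, a gap of -0.73) and Cd74 (-0.02 and 0.51, a gap of -0.52). The other gaps between MSM and B6 in thymus were -0.40 for Tapbp, -0.40 for Nlrc5, 0.36 for Psmb8, -0.27 for Tap1 and -0.26 for Tap2. The MSM thymus values of Tap1 (-0.0053), Cd74 (-0.02) and Psmb8 (0.08) lay near 0, so their signs rest on small values. The MSM untreated thymus library, which enters each MSM thymus value here, is the one with hepatocyte markers summed at 2438 FPKM.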

How the results depend on the processing

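The counts of called genes among the 10 held under every alternative run. They stayed at 0 under 13 alternatives of each strain fit and 8 of each fit between tissues, and at 8 of 10 for liver minus thymus under 17 alternatives, except after rescaling to a common sum (10). Without the replicate block (mouse), 8 were called too, so the block changed no call there. Counts over all genes moved more. Strain calls in liver, 161, ran between 0 and 336, and in thymus, 113, between 0 and 300; they were 0 without any 1 of the liver libraries and without any 1 of the thymus libraries except MSM injected (113). These fits took both tissues together, so that a lone library is assumed to vary like the others. Calls on the mouse differences ran between 5 and 132 for strain (47) and between 1 and 5 for injection (5), and those between tissues between 6252 and 9872 (7821). After rescaling, the 47 strain calls between tissues (14 higher and 33 lower) became 8 (5 higher and 3 lower), and the 5 injection calls (2 higher and 3 lower) became 1 (lower). Rescaling also moved the median strain difference of all genes in liver from 0.01 to -0.16. Signs turned for liver minus thymus after rescaling (Tapbp -0.76, Psmb5 -0.20, Psmb6 -0.17, Psmb7 -0.38), and for B2m in the thymus strain difference (-0.0192). Leaving out 1 library at a time, the strain difference of Tapbp in liver ran between -0.72 and 0.0531 (the high end without either injected library), of B2m in thymus between -0.0762 (without either untreated library) and 0.17, and of Psmb8 in thymus between -0.13 (without either injected library) and 0.30. Without 1 mouse, the fits on mouse differences have no spread left and gave values only. Low fragment numbers limit Ciita in liver and the lowest liver values of Tap1, Psmb10, Psmb9 and Nlrc5, with counting errors of 33.4%, 28.4%, 27.5% and 24.6%.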

Other observations

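Among class II processing genes, the injected B6 liver stood below the untreated B6 liver in 9 of 9. Their median difference was -0.43 on the centred log2 scale, beside -0.01 for all genes. Of these, 3 were lower by 2-fold or more, beside 6.24% of all genes. The comparison is of single libraries with no test, and 8 of the 11 proteasome core genes were lower there too. Its untreated B6 liver is also the library that stands apart by its T cell markers, at 36.1 FPKM against 4.62 to 7.60 FPKM in the other livers. The genes named here were chosen after their values were seen. Lgmn, a lysosomal endopeptidase gene, had 22.9 FPKM in the injected against 53.2 FPKM in the untreated B6 liver, Ifi30 had 6.41 against 14.8 FPKM, and Ctss had 21.7 against 43.8 FPKM. In MSM liver 4 of the 9 had higher and 5 lower values in the injected mouse, with Lgmn at 18.6 against 18.7 FPKM and Ifi30 at 10.6 against 5.19 FPKM. Summed Kupffer cell and macrophage markers stood at 248 FPKM in the injected and 527 FPKM in the untreated B6 liver, and at 96.6 and 95.4 FPKM in the MSM livers; their part in these values was not tested.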
